A study of Mus musculus with 12 samples.

Results

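This account follows 9 genes of the circadian clock's output in mouse kidney: the D-box activators *Dbp*, *Tef* and *Hlf*, the D-box repressor *Nfil3*, the E-box repressors *Bhlhe40*, *Bhlhe41* and *Ciart*, the clock-controlled deubiquitinase gene *Usp2*, and *Noct*, which encodes nocturnin. They were taken by gene symbol from the 55401 gene identifiers listed for each mouse, and all 9 passed the filter on low counts that left 14159 genes for testing. Whole kidneys of male C57BL6 mice, 8 weeks old, were profiled by RNA-Seq at 1 library per mouse. The 6 control mice received 1 intraperitoneal injection of vehicle, 15% 2-hydroxypropyl-beta-cyclodextrin, and the 6 treated mice 1 intraperitoneal injection of SK-124 at 40 mg/kg. SK-124 is an inhibitor of the salt-inducible kinases SIK2 and SIK3, which hold the CREB coactivators of the CRTC family in the cytoplasm. All mice were of the same strain, with no engineered allele named, and the comparison asked which kidney transcripts differ after acute inhibition of these kinases. No separate time of kidney collection is named for the RNA-Seq, and no clock time of injection or collection is given.

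The circadian clock is a transcriptional feedback loop that runs in most cells, those of the kidney tubule included. CLOCK and BMAL1 bind E-box sites and drive genes for their own repressors, together with output genes such as *Dbp*, whose products carry the rhythm to metabolism, transport and detoxification. The proline and acidic amino acid-rich (PAR) bZIP factors DBP, TEF and HLF activate genes through D-box sites, and NFIL3, also called E4BP4, binds the same sites and represses. *Nfil3* is itself held down by the REV-ERB receptors and activated by the ROR receptors, so that in many tissues it peaks at times when *Dbp* is low. BHLHE40, BHLHE41 (also DEC1 and DEC2) and CIART (CHRONO) feed back onto E-box transcription. *Per1*, and in several cell types *Noct*, are also acute response genes, induced by signals outside the clock.

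The expected counts, which are RSEM's estimate of the reads that belong to a gene, summed to between 19244227 and 19771802 per mouse. The 10 genes with the most counts took 39.9% to 43.2% of a vehicle library and 38.6% to 40.2% in SK-124-treated mice 4 to 6, but 44.4% to 46.8% in SK-124-treated mice 1 to 3, and the labels name no batch. The 10 kidney tubule and glomerulus markers were all measured, with a summed TPM of 3064 to 3873 in vehicle and 3045 to 3541 in SK-124-treated mice. Values below are counts scaled to library size with edgeR's TMM method (CPM) unless TPM is named, and a gene was called changed at an adjusted p under 0.05 in edgeR's quasi-likelihood test. These are bulk samples, in which fewer cells of a type and less RNA per cell cannot be told apart.

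Promoter stretches of these genes are shown, grouped by the sites whose letters they hold. RefSeq promoters of GRCm38.p6, from 250 bases before to 50 bases after each annotated start, were found for 8 of the 9 members, with 9 windows in all. *Bhlhe40* had no promoter entry and was not searched. The *Tef* stretch shown lies inside the gene, which begins at 81802421. The E-box CACGTG, which reads the same on both strands, occurred in 7.15% of 32851 promoters. It lay in those of *Ciart*, *Bhlhe41* and *Tef*, and it occurred 3 times in *Ciart*, beginning at -116, -58 and -44 from the start. Both *Tef* windows held it, at -127 in the one at the gene's 5′ end, which is not shown, and at -138 in the one shown. The stretches below run 5′ to 3′ along the gene's strand with E-boxes in capitals, at chr3:95882259-95882358 on the minus strand for *Ciart*, chr6:145865541-145865600 on the minus strand for *Bhlhe41* and chr15:81811249-81811308 on the plus strand for *Tef*.
Ciart: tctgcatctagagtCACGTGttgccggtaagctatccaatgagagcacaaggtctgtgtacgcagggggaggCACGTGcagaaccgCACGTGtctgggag
Bhlhe41: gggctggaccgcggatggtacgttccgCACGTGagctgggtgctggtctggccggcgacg
Tef: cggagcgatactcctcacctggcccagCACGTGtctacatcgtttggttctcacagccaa

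A second group of stretches is shown, picked with results known: *Noct*, *Usp2* and *Nfil3* rose after SK-124 and *Hlf* fell. Any part of the site they share in these changes was not tested. The CRE, the site of CREB, was searched on both strands as its full form TGACGTCA, which contains the short form on either strand, and as its short form TGACG. The short form occurred in 20.8% of promoters and lay in those of *Noct*, *Usp2*, *Nfil3* and *Hlf*, while the full form occurred in 1.79% and lay in that of *Hlf* alone among the members. The *Usp2* window begins at 44084670, inside the gene, whose annotated 5′ end is at 44067021. No window at that 5′ end was searched. The core of the ROR element, AGGTCA, occurred in 16.3% of promoters and among the members in that of *Nfil3*. The D-box forms TTATGTAA and TTACGTAA, in 0.938% and 0.119% of promoters, were in none of the members' windows. Capitals mark the CRE in *Noct* (chr3:51224407-51224466, plus strand), *Usp2* (chr9:44084880-44084939, plus strand) and *Hlf* (chr11:90390898-90390957, minus strand), and in *Nfil3* (chr13:52981040-52981104, minus strand) the short CRE and then the ROR core, both of which lie on the opposite strand. A match is a description of the letters and not of binding.
Noct: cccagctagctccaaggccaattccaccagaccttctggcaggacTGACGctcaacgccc
Usp2: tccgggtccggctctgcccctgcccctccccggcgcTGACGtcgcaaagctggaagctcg
Nfil3: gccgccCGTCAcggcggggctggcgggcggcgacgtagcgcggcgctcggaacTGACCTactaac
Hlf: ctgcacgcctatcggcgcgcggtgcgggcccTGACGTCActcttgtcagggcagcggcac

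After SK-124, *Noct*, *Nfil3* and *Usp2* rose, *Dbp*, *Bhlhe41* and *Hlf* fell, and *Bhlhe40*, *Ciart* and *Tef* were not called. Thus 6 of the 9 members were called, where 24.4% of all genes tested were called in either direction, 10.8% higher and 13.5% lower. In 4 members the groups did not overlap, which was so for 13% of genes tested. *Noct*, *Nfil3* and *Usp2* lay above the vehicle range in every SK-124-treated mouse, as 6.32% of genes did, and *Dbp* lay below it, as 6.65% did. Of the 9 members, 5 were called and past 1.5-fold, the 6 calls less *Hlf*, where 8.3% of genes tested were.

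**Figure D1:**
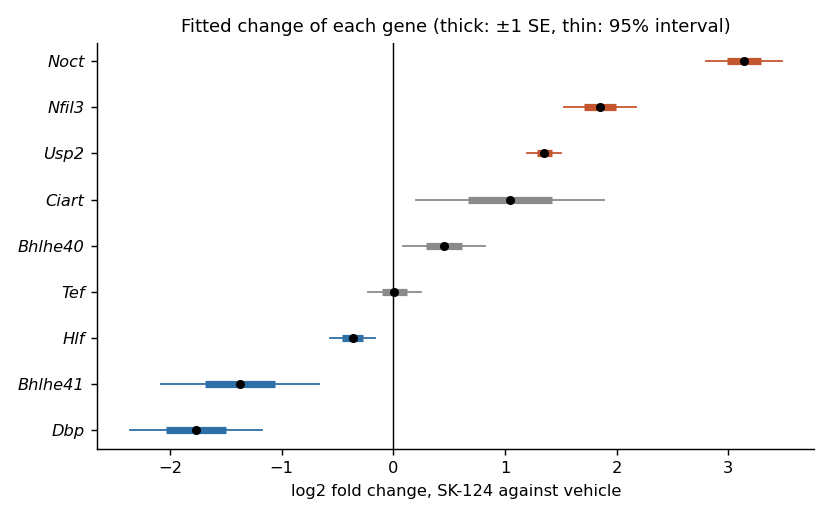
Log2 fold change of each of the 9 genes, SK-124 against vehicle, from edgeR's quasi-likelihood fit to 6 mice per group; the thick bar is 1 standard error to each side and the thin bar the 95% interval. *Noct* stands at 3.14 and *Dbp* at -1.77, and the interval of *Tef* crosses 0.

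*Dbp*, the PAR bZIP factor with the strongest daily rhythm in most tissues, was the most strongly reduced member. It was 12.6 CPM in the lowest, 20.8 in the median and 41.0 in the highest vehicle-treated mouse, and 4.26, 5.97 and 11.1 CPM after SK-124. No SK-124-treated mouse reached the lowest vehicle-treated mouse, and each group held 1 mouse well above its fellows, mouse 5 with vehicle and mouse 4 with SK-124. The mean fell from 21.9 ± 10.1 to 6.42 ± 2.45 CPM (SD, n = 6 each), a 3.41-fold reduction with a log2 fold change of -1.77 (SE 0.27, 95% interval -2.36 to -1.18, adjusted p = 9.52e-05). A two-sided exact permutation test on the group means gave 0.00216, the smallest p that 6 against 6 can give. Among the 14159 genes this log2 fold change was the 27th from the lowest. Without vehicle-treated mouse 5 it was -1.49, and without SK-124-treated mouse 4 it was -2.003.

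*Dbp* (ENSMUSG00000059824.12) lies on the plus strand of chromosome 7, 45705088 to 45710203, in GENCODE M21 (GRCm38), whose identifiers match those of the files in version for all 9 members. On the opposite strand the annotation puts *Sphk2*, which encodes a sphingosine kinase, with 539 exon bases shared with *Dbp*. Whether counting used strand is not given in the sources used here. RSEM's posterior SD of the count, which is above 0 where reads fit more than 1 gene, was 0 for *Dbp* in each mouse. *Sphk2* itself had 1102 to 1203 counts in vehicle and 852 to 1089 in SK-124-treated mice (log2 fold change -0.12, SE 0.05, adjusted p = 0.115).

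*Tef*, the PAR factor with the flattest rhythm in many tissues, did not differ between the groups by a margin the test could call. Its values were 101 CPM, 108 CPM and 134 CPM (lowest, median and highest) with vehicle and 82.7, 114 and 137 CPM with SK-124. The treated mice lay on both sides, 1 above and 2 below the vehicle range. The log2 fold change was 0.01 (SE 0.11, adjusted p = 0.961), with a 95% interval of -0.23 to 0.25.

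*Hlf*, the last of the PAR factors, was modestly reduced. Vehicle-treated mice ranged from 55.1 to 84.1 CPM with a median of 67.0, and SK-124-treated mice from 46.7 to 59.0 CPM with a median of 54.6. The groups overlapped, with 3 of 6 SK-124-treated mice below every vehicle-treated mouse. The mean fell 1.29-fold, from 69.3 ± 11.0 to 53.8 ± 4.33 CPM (log2 fold change -0.37, SE 0.09, adjusted p = 0.00663, exact permutation p = 0.00866). This call stood in 19 of 22 alternatives. It was not made on the TPM scales, as on log2(TPM + 1) with limma (-0.44, adjusted p = 0.0564). Nor was it made when only SK-124-treated mice 1 to 3 were kept (-0.30, adjusted p = 0.0970). With only mice 4 to 6 it was made (-0.42, adjusted p = 0.0305).

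*Nfil3*, the repressor that competes with these activators at D-boxes, moved the other way. It was 2.94, 4.92 and 6.99 CPM with vehicle (lowest, median and highest) and 14.9, 17.6 and 22.2 CPM with SK-124. Every SK-124-treated mouse had far more than the highest vehicle-treated mouse. The mean rose 3.6-fold, from 5.04 ± 1.34 to 18.1 ± 2.68 CPM (log2 fold change 1.85, SE 0.15, 95% interval 1.53 to 2.17, adjusted p = 6.24e-08, exact permutation p = 0.00216). Vehicle-treated mouse 5, the highest in *Dbp*, was the lowest of its group in *Nfil3*, while SK-124-treated mouse 4, the highest treated mouse in *Dbp*, was the second lowest of its group. The gene is ENSMUSG00000056749.7, on the minus strand of chromosome 13 from 52967209 to 52981073, and no overlapping gene is annotated.

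Set per transcript length, the balance between the activators and the repressor of the D-box shifted in every treated mouse. The TPM of *Dbp* divided by that of *Nfil3* was 2.51, 5.02 and 16.2 in the lowest, median and highest vehicle-treated mouse and 0.248, 0.377 and 0.847 with SK-124. *Dbp* thus exceeded *Nfil3* in all 6 vehicle-treated mice and lay below it in all 6 treated mice. With *Tef* and *Hlf* added, the ratio of activator TPM to *Nfil3* TPM was 17.9, 24.9 and 58.9 with vehicle and 4.04, 6.10 and 7.82 with SK-124, again with no overlap. The numerator moved less than the denominator: the summed TPM of the 3 activators was 48.5 to 93.0 with vehicle and 45.3 to 60.1 with SK-124, ranges that overlap. *Dbp* made up 11.7% to 27.6% of that sum in vehicle-treated and 5.37% to 11.2% in SK-124-treated mice. These ratios combine members chosen with their results known and are given as descriptions.

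**Figure D2:**
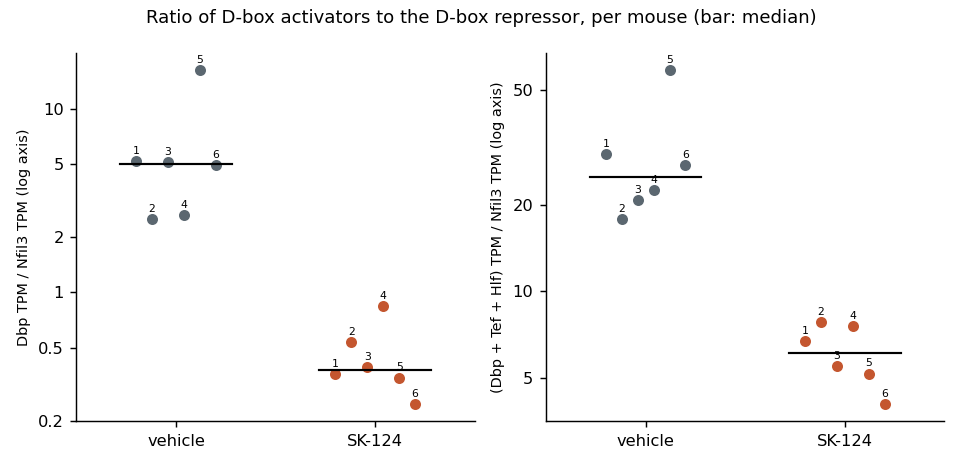
Ratio of D-box activator to repressor transcripts in each mouse (TPM over TPM, log axes), with *Dbp* alone on the left and the sum of *Dbp*, *Tef* and *Hlf* on the right; numbers are mouse numbers within a group and bars are medians. The groups do not overlap in either panel, and vehicle-treated mouse 5 stands highest in both.

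The E-box repressors did not move together. *Bhlhe40*, which many acute stimuli induce, was 44.3, 50.6 and 80.9 CPM with vehicle (lowest, median and highest) and 51.4, 74.9 and 97.7 CPM with SK-124. The groups overlapped, with 3 treated mice above the highest control, vehicle-treated mouse 5, and the lowest treated mouse below the second highest control at 56.2 CPM. The means were 54.6 ± 13.7 and 74.8 ± 18.8 CPM and the log2 fold change was 0.46 (SE 0.16, 95% interval 0.09 to 0.82, adjusted p = 0.0508), just short of a call. Without vehicle-treated mouse 5 it was 0.60 with an adjusted p of 0.00579, and without SK-124-treated mouse 4 it was 0.36 with an adjusted p of 0.122.

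*Bhlhe41*, its close relative, fell. It was a scarce transcript, with 14 to 35 counts per vehicle-treated mouse and 3 to 15 per SK-124-treated mouse. In CPM these were 0.715, 1.45 and 1.66 (lowest, median and highest) with vehicle and 0.174, 0.548 and 0.877 with SK-124, and 5 of 6 treated mice lay below the vehicle range. The log2 fold change was -1.37 (SE 0.32, 95% interval -2.08 to -0.67, adjusted p = 0.00383, exact permutation p = 0.00649). With only SK-124-treated mice 1 to 3 it was -1.20 with an adjusted p of 0.0597, and with only mice 4 to 6 it was -1.545 with an adjusted p of 0.0111. The TPM of *Bhlhe40* over that of *Bhlhe41* ran from 45.5 to 131 with vehicle and from 184 to 753 with SK-124, and the lowest treated mice in *Bhlhe41* had so few counts that their ratio is imprecise.

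*Ciart*, whose product is a repressor of CLOCK and BMAL1, was as scarce, with 8 to 24 counts per vehicle-treated and 9 to 49 per SK-124-treated mouse. The CPM values were 0.395, 0.558 and 1.14 with vehicle and 0.521, 0.978 and 2.43 with SK-124. Treated mice 3 and 4 stood above the vehicle range and the other 4 within it. The log2 fold change of 1.04 (SE 0.38, 95% interval 0.20 to 1.89) had an adjusted p of 0.0535 with edgeR and 0.0410 with DESeq2. Without vehicle-treated mouse 5 edgeR gave 1.304 (adjusted p = 0.0244), without SK-124-treated mouse 1 it gave 1.2 (adjusted p = 0.0233), and without SK-124-treated mouse 5 it gave 1.19 (adjusted p = 0.0304). Leaving out the 2 highest treated mice in turn lowered it, to 0.83 (adjusted p = 0.139) without mouse 3 and 0.76 (adjusted p = 0.155) without mouse 4. Leaving out treated mouse 1 or 5 also moved *Bhlhe40* past the threshold, at adjusted p of 0.0320 without mouse 1 and 0.0179 without mouse 5.

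*Usp2* encodes a ubiquitin-specific protease whose transcripts cycle in many tissues and which in kidney is known for removing ubiquitin from the epithelial sodium channel. It was 62.7, 71.6 and 77.7 CPM in the lowest, median and highest vehicle-treated mouse and 155, 180 and 199 CPM with SK-124. No treated mouse came near the vehicle range, and the spread within each group was small. The mean rose 2.55-fold, from 69.9 ± 6.00 to 179 ± 14.3 CPM (log2 fold change 1.35, SE 0.07, 95% interval 1.2 to 1.5, adjusted p = 2.59e-10, exact permutation p = 0.00216). The call stood in each alternative tried, with log2 fold changes from 1.17 to 1.39. *Usp2* (ENSMUSG00000032010.15) spans 44067021 to 44095627 on the plus strand of chromosome 9 and shares 200 exon bases with each of 2 genes on the opposite strand, neither of which had more than 9 counts in any mouse.

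*Noct* showed the largest change of the 9. Nocturnin belongs by sequence to the CCR4 family of exonuclease-endonuclease-phosphatase proteins and removes a phosphate from NADP and NADPH to give NAD and NADH. Vehicle-treated mice had 5.46 CPM at the lowest, 6.62 at the median and 8.43 at the highest, and SK-124-treated mice 35.9, 65.0 and 72.1 CPM. All treated mice lay far above all controls, and among them mouse 1 was set apart by a low value, the next being 61.2 CPM. The mean rose 8.80-fold, from 6.95 ± 1.22 to 61.2 ± 12.9 CPM (log2 fold change 3.14, SE 0.15, 95% interval 2.80 to 3.48, adjusted p = 1.83e-10, exact permutation p = 0.00216). It ranked 22nd from the highest log2 fold change among all genes tested, where *Nfil3* ranked 76th and *Usp2* 146th. Without mouse 1 the log2 fold change was 3.25.

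*Noct* (ENSMUSG00000023087.15) lies on the plus strand of chromosome 3, from 51224447 to 51251644, and its expected counts were 107 to 178 per vehicle-treated and 620 to 1440 per SK-124-treated mouse. The posterior SD of the count was 0 in each mouse for *Noct* and the other members too. The 6 CCR4-type relatives of nocturnin did not follow it. Of these, *Cnot6*, *Cnot6l*, *Pde12*, *Angel1* and *Angel2* were not called, and *2810006K23Rik* fell (log2 fold change -0.38, adjusted p = 0.0150), with a median over the 6 of -0.03 beside -0.01 over all genes tested. The NAD kinases, which catalyse the reverse step, were not called either, *Nadk* and *Nadk2* both having a log2 fold change of 0.06 (adjusted p of 0.447 and 0.538).

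**Figure D3:**
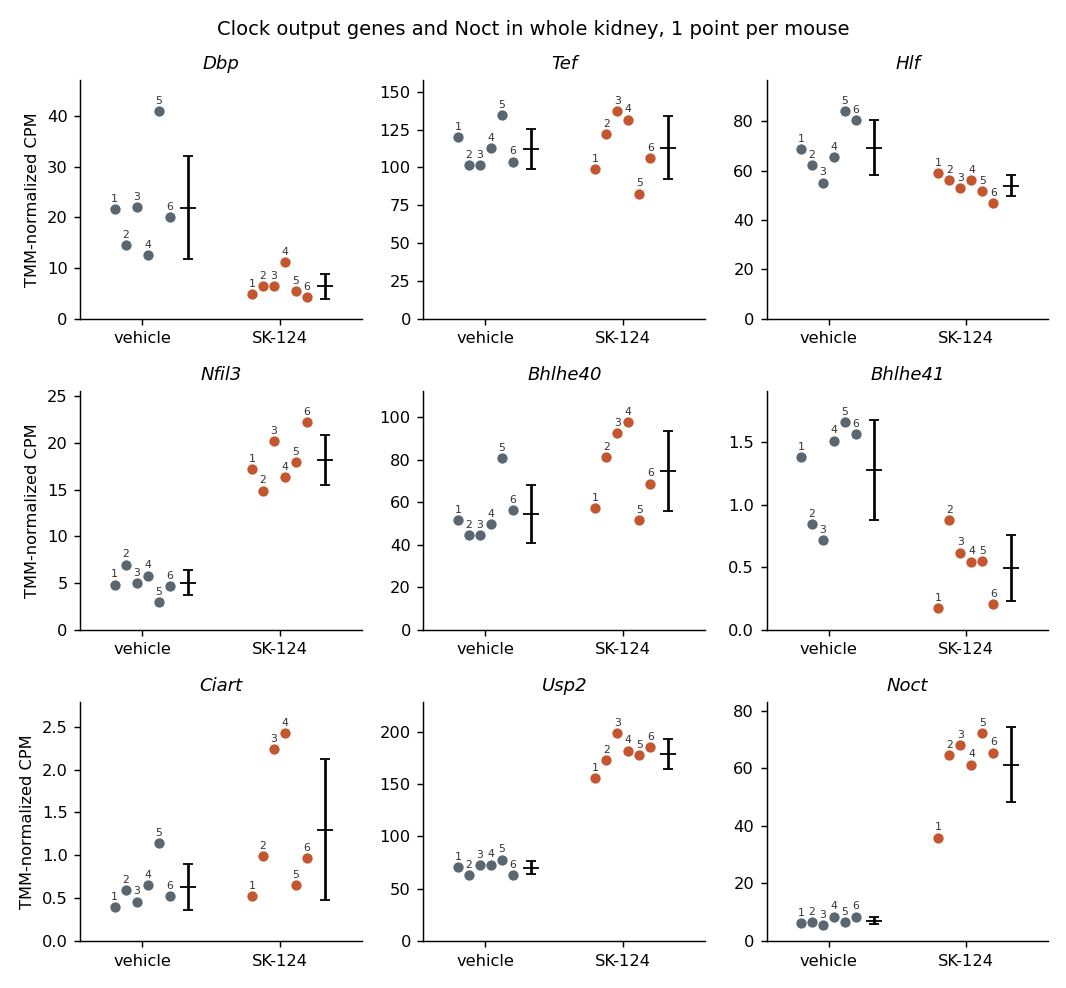
TMM-normalized CPM of each of the 9 genes in each mouse (points with mouse numbers within a group), on linear axes from 0, with the group mean and SD of 6 mice as a bar beside the points. The groups are separate in *Noct*, *Nfil3*, *Usp2* and *Dbp* and overlap in the other 5.

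The other members lie as follows in GENCODE M21 (GRCm38). *Tef* (ENSMUSG00000022389.15) is on the plus strand of chromosome 15 from 81802421 to 81826863, and *Hlf* (ENSMUSG00000003949.16) on the minus strand of chromosome 11 from 90336536 to 90390895. *Bhlhe40* (ENSMUSG00000030103.11) is on the plus strand of chromosome 6 from 108660629 to 108666925, *Bhlhe41* (ENSMUSG00000030256.11) on the minus strand of the same chromosome from 145858243 to 145865558, and *Ciart* (ENSMUSG00000038550.10) on the minus strand of chromosome 3 from 95878503 to 95882251. *Bhlhe41* shares 1280 exon bases with *Gm43909* on the opposite strand, which had at most 2 counts in any mouse. *Tef* and *Bhlhe40* share 193 and 118 exon bases with antisense genes that had 10 to 21 and 42 to 74 counts.

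Levels between genes were compared in TPM, which allows for transcript length. With vehicle the order was *Usp2* (39.3 ± 4.99 TPM), *Tef* (33.0 ± 6.24), *Hlf* (22.1 ± 5.43), *Bhlhe40* (18.0 ± 5.59) and *Dbp* (13.1 ± 6.49), each neighbour overlapping the next. Below a gap came *Nfil3* (2.53 ± 0.63 TPM) and *Noct* (2.24 ± 0.48), which overlapped each other, and below a further gap *Ciart* (0.50 ± 0.26) and *Bhlhe41* (0.245 ± 0.120), which overlapped too (SD, n = 6). With SK-124 *Usp2* stood alone at the top (90.1 ± 16.3 TPM). *Tef* (29.7 ± 3.98), *Bhlhe40* (21.6 ± 5.45), *Noct* (17.2 ± 4.59) and *Hlf* (15.7 ± 2.47) followed, each overlapping its neighbour, so that *Noct* moved from rank 7 to rank 4. *Nfil3* (8.34 ± 1.82 TPM) now stood above *Dbp* (3.63 ± 1.54), with overlapping ranges, and *Dbp* moved from rank 5 to rank 7. *Ciart* (0.93 ± 0.54) and *Bhlhe41* (0.0883 ± 0.0426) were last and did not overlap each other.

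**Figure D4:**
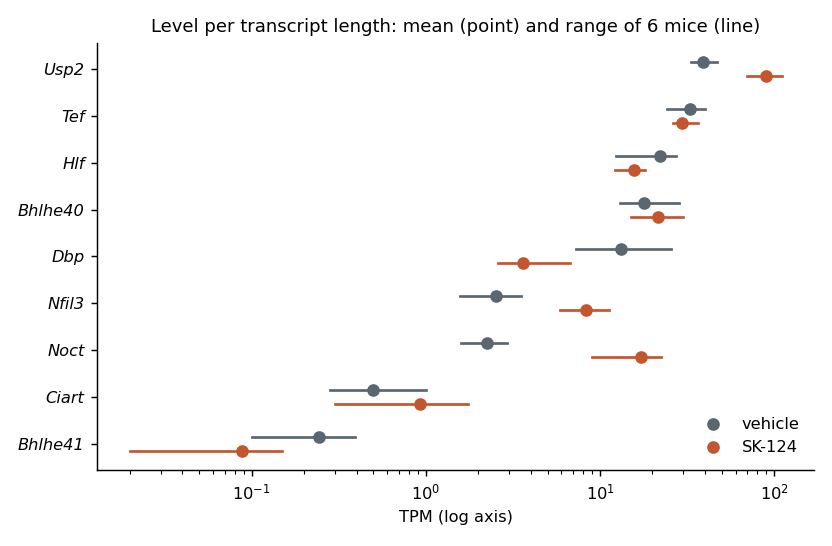
TPM of the 9 genes on a log axis, with the mean (point) and the range of 6 mice (line) for vehicle and SK-124. *Usp2* is the highest in both groups, while *Noct* rises from 2.24 to 17.2 TPM and *Dbp* falls from 13.1 to 3.63 TPM.

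Single mice stood at the edge of their group in several members. Vehicle-treated mouse 5 was the highest of its group in 7 of the 9 genes, all but *Nfil3* and *Noct*, and the lowest in *Nfil3*. SK-124-treated mouse 4 was the highest of its group in *Dbp*, *Bhlhe40* and *Ciart*, and SK-124-treated mouse 1 the lowest in *Bhlhe41*, *Ciart*, *Usp2* and *Noct*. After the mean of each group was taken off, log2(CPM + 0.5) of *Dbp* over the 12 mice correlated with that of *Nfil3* at Pearson's r = -0.802 (within-group permutation p = 0.00623, adjusted over 8 pairs 0.029) and Spearman's rho = -0.65 (permutation p = 0.0311, adjusted 0.196). Within the vehicle group r was -0.936 and within the SK-124 group -0.518. With *Bhlhe40* Pearson's r was 0.745 (permutation p = 0.00726, adjusted 0.029) and rho 0.587 (permutation p = 0.0491, adjusted 0.196).

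Without the 2 mice farthest from the median of *Dbp*, vehicle-treated mouse 5 and SK-124-treated mouse 4, neither relation passed. With *Nfil3* r kept its sign at -0.656 over the 10 mice left (permutation p adjusted 0.356), and with *Bhlhe40* it shrank to 0.352 (permutation p adjusted 0.815). With the other 6 members r ran from -0.0474 (*Noct*) to 0.604 (*Ciart*) and none passed after adjustment. *Noct*, the member with the largest change, was the one whose Pearson's r with *Dbp* was nearest to 0 (permutation p = 0.88). Its r was -0.379 within the vehicle group and 0.221 within the SK-124 group. Its rho, -0.336, was farther from 0 than that of *Bhlhe41* (0.217). Among pairs without *Dbp*, the highest r was between *Tef* and *Bhlhe40* (0.92), followed by *Bhlhe40* with *Ciart* (0.86) and *Tef* with *Ciart* (0.81), and the lowest between *Hlf* and *Nfil3* (-0.72), given as descriptions over 12 mice of 1 experiment.

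**Figure D5:**
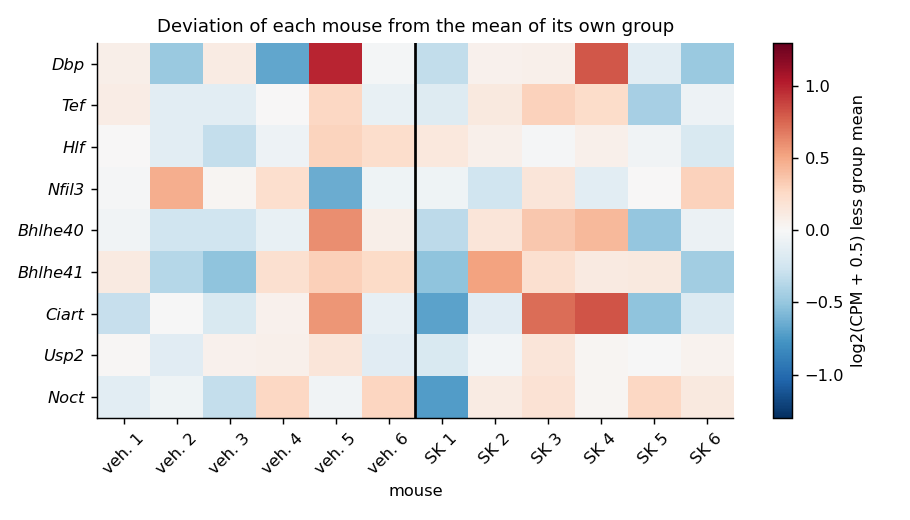
Deviation of each mouse from the mean of its own group in log2(CPM + 0.5), with genes as lines and mice as columns, red above and blue below the group mean. Vehicle-treated mouse 5 is above its group mean in *Dbp*, *Bhlhe40* and *Ciart* and below it in *Nfil3*, and SK-124-treated mouse 1 is below it in *Noct*.

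The genes whose deviations were most like those of each member were sought among the 13008 genes averaging 1 CPM or more, 3 per member, and these r values are the highest of many and carry no test. Nearest to *Dbp* were *Tns2* (0.929), *Nrap* (0.873) and the period gene *Per3* (0.864). Nearest to *Bhlhe40* were *Nr4a1*, an immediate-early nuclear receptor (0.969), *Tef* (0.916) and *Btg2* (0.913), and nearest to *Tef* were *Bhlhe40*, *Wasf3* (0.916) and *Dcaf12l1* (0.901). *Noct* came nearest to *Lipg* (0.903), *Inpp5k* (0.902) and *Oasl1* (0.879), *Usp2* to *Tsta3* (0.901), *Prx* (0.877) and *Nectin2* (0.876), and *Nfil3* to *Katna1* (0.897), *Bex1* (0.871) and *Plppr1* (0.855). For *Hlf* they were *Zswim6* (0.927), *St3gal2* (0.919) and *Pdgfc* (0.913), for *Bhlhe41* *Ppip5k1* (0.938), *Chrdl1* (0.937) and *Nphp4* (0.919), and for *Ciart* *Map2k6* (0.911), *L1cam* (0.906) and *Il18bp* (0.895).

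Some of the genes around these members in the clock were called, where 24.4% of all genes tested were called in either direction. The first list, with 2 of 8 called, was near that share. Of the core activators and their ROR and REV-ERB regulators 8 of 9 were tested, and 2 rose, *Rora* (log2 fold change 1.01, SE 0.10, adjusted p = 7.90e-07) and *Arntl*, which encodes BMAL1 (0.51, SE 0.11, adjusted p = 0.00272), with a list median of 0.16. *Clock*, *Nr1d1* and *Nr1d2* were among those not called. Of the 5 period and cryptochrome genes *Per1* rose from 17.1 to 91.7 CPM (2.42, SE 0.18, adjusted p = 3.23e-08) and *Cry1* by 0.62 on the log2 scale (adjusted p = 0.0160), while *Per3* fell by 0.71 (adjusted p = 0.00109), for a median of 0.10. Of the 6 clock kinase and ubiquitin ligase genes 3 rose, among them *Fbxw11* (log2 fold change 0.25, adjusted p = 0.0113), and the median was 0.17.

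The genes known in liver as PAR bZIP targets that could be tested rose, where *Dbp* and *Hlf* fell. Any link between these changes was not tested, and 10.8% of all genes tested were called higher. Only 3 of the 6 listed passed the filter in kidney, and all 3 rose: *Alas1*, the rate-limiting enzyme of haem synthesis (log2 fold change 0.68, adjusted p = 0.00316), *Cyp2a5* (0.59, adjusted p = 0.000693) and *Por*, the reductase of cytochrome P450 enzymes (0.19, adjusted p = 0.0203). Of 9 CRE-driven genes of the cAMP response 8 rose, with a median of 1.75, led by *Nr4a3* (5.20, adjusted p = 3.26e-09) and *Nr4a2* (3.601, adjusted p = 1.12e-05). *Fos* was not called (0.13, adjusted p = 0.925), but its vehicle values spread widely, at 5.28 ± 10.7 CPM with a range of 0.496 to 27.1. With SK-124 it was 5.81 ± 3.57 CPM, from 2.43 to 12.1. *Noct*, at 3.14, lay between *Nr4a2* and *Nr4a1* (2.80) in size of change, and *Per1* belongs to this list as well as to the period genes. As *Noct* ranked 22nd among all genes tested, genes outside this list rose by more too. Any part of a CRE in its change was not tested.

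Markers of cells a kidney sample can hold were set beside these values. Of the 10 kidney markers 2 rose, among them *Aqp2* of the collecting duct (log2 fold change 0.75, adjusted p = 0.000852), and the list median was 0.04. None of the 5 red cell genes was called (median -0.21, summed TPM 1287 to 3211 with vehicle and 1214 to 2097 with SK-124). Of 7 adrenal cortex markers only *Star* passed the filter (0.21, adjusted p = 0.646), the 7 summed to at most 0.62 TPM in any mouse, and *Cyp11b2* and *Cyp21a1* were at 0 counts in all mice. Of 6 fat cell markers only *Cfd* passed (-0.04, adjusted p = 0.983), and the 6 summed to 0.08 to 21.9 TPM with vehicle and 0.14 to 10.2 with SK-124. Of 7 leukocyte markers 5 were tested (median -0.30): *S100a8* of neutrophils rose (3.10, adjusted p = 0.000108), *Cd79a* of B cells fell (-1.76, adjusted p = 0.000627), and the list summed to 11.7 to 19.7 TPM with vehicle and 13.0 to 21.1 with SK-124. The part of these shifts in the members' values was not tested.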

How the data were processed

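Kidney libraries of 12 separate mice were grouped by the labels, 6 with vehicle and 6 with SK-124. The authors deposited 1 RSEM gene table per mouse with expected counts, which are not normalized, and TPM, which RSEM scales to effective gene length and to a fixed total; the deposited effective length and posterior SD of the count were also read, and the FPKM column and other columns were not used. The submitters' processing notes name FastQC, STAR 2.7.2b, RSEM 1.3.0, DESeq2 and the build mm10, without roles; the annotation and the use of strand are not given in the sources used here. Expected counts were rounded, filtered with edgeR's filterByExpr, scaled with TMM and compared by the quasi-likelihood test of edgeR over 14159 genes (biological coefficient of variation 0.101), with Benjamini-Hochberg adjustment. Standard errors are the log2 fold change over the square root of F, and 95% intervals use t with 10 degrees of freedom. Permutation tests used log2(CPM + 0.5), two-sided, over all 924 assignments for groups and 100000 draws within groups for correlations. Depth was even between mice, so counting error matters mainly for *Bhlhe41* and *Ciart*.

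Of 55401 identifiers, 54349 matched the reference list of gene names with their version. The procedure, tested on simulated data for this comparison with 200 genes among 14159 changed at least 2-fold, recovered 96.5% of them with 5.39% false calls. Smaller changes were not simulated. No duplicated library was found (lowest chi-square per degree of freedom 4.72 over 30 pairs). The members and lists were chosen with earlier results of these data known. Named are the 9 members, of each list the 2 largest called changes in each direction or all where 3 or fewer were tested, and the 3 genes most like each member; other genes were named after their values were seen, and 2 genes of the lists are not reported here by name. Alternatives were RLE scaling, library totals, DESeq2, no filter, at least 10 counts in every mouse, limma on log2(TPM + 1) and log2(TPM + 0.1), the replicate number as a block, a 1.5-fold minimum, each mouse left out, SK-124-treated mice 1 to 3 or 4 to 6 alone, and for correlations a pseudocount of 0.1 and the removal of 2 mice. R 4.3.3 was used with DESeq2 1.42.0, edgeR 4.0.16 and limma 3.58.1, and Python 3.11.15 with pandas 2.3.3, scipy 1.17.1 and numpy 2.4.6.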

Additional observations from a re-analysis of the deposited data

Results flagged for a closer look

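The 9 members and the genes that the naming rule took from the lists, 30 in all, were checked in each treatment. Genes named for other reasons, *Fos* and *Nr4a1* among them, were not checked. Of the 60 groups of 6 mice, 11 held a mouse whose gap to its nearest neighbour exceeded Dixon's 95% critical value as a share of the group's range. Chance gives about 3.0, or 1 group in 20. The genes checked were chosen with results known and vary together between mice, so these are not independent events.

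Among the 9 clock output genes there were 5 such values in 18 groups. *Dbp* stood at 41.0 CPM in vehicle-treated mouse 5 and at 11.1 CPM in SK-124-treated mouse 4, each the highest of its group. *Bhlhe40* at 80.9 CPM and *Ciart* at 1.14 CPM were the highest of their group in vehicle-treated mouse 5 too. *Noct* at 35.9 CPM in SK-124-treated mouse 1 was the lowest of its group and still above each vehicle-treated mouse.

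The other 6 were *Per3* at 11.1 CPM, *Aqp2* at 143 CPM and *S100a8* at 0.569 CPM as the highest and *Cry1* at 1.28 CPM as the lowest in vehicle-treated mouse 5, *Cfd* at 10.9 CPM as the highest in vehicle-treated mouse 6, and *Alas1* at 222 CPM as the highest in SK-124-treated mouse 5. Vehicle-treated mouse 5 accounted for 7 of the 11 values, and the cause was not tested.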

How the results depend on the processing

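*Dbp*, *Nfil3*, *Usp2* and *Noct* kept direction and call in all 22 alternatives. The 1536 genes called higher and 1917 lower became 777 and 3058 with library totals, and 508 and 667 past 1.5-fold. Genes called higher were 500 on log2(TPM + 1) and 498 on log2(TPM + 0.1), and genes called lower were 1233 if the treated group held mice 1 to 3 alone and 1267 if it held mice 4 to 6. Library totals and both TPM scales moved the median of all genes to -0.118, -0.107 and -0.144, and calls that were higher from 44.5% to 20.3%, 19% and 19%. *Tef* turned to -0.109, -0.138 and -0.142 there, to -0.066 with mice 4 to 6 and to -0.002 under the replicate block, never called. *Hlf* lost its call on both TPM scales (-0.439 and -0.459, adjusted p = 0.0564 and 0.0560) and with mice 1 to 3 (-0.305, adjusted p = 0.0970), as did *Bhlhe41* there (-1.197, adjusted p = 0.0597), leaving 1 member called lower. The TPM scales, whose pseudocount shrinks changes of low genes, gave -0.189 and -0.829 for *Bhlhe41*, still called, and 0.334 and 0.701 for *Ciart*, not called. *Bhlhe40* was called with RLE (0.461, adjusted p = 0.0491) and with no filter (0.452, adjusted p = 0.0264), and *Ciart* with DESeq2 (1.058, adjusted p = 0.0410) and with no filter (1.042, adjusted p = 0.0408), which gave 5 members higher. At least 10 counts in every mouse left out *Bhlhe41* and *Ciart*. The correlations of *Dbp* without 2 mice were -0.656 with *Nfil3* (permutation p adjusted 0.356) and 0.352 with *Bhlhe40* (permutation p adjusted 0.815).

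Leaving out each mouse gave 1320 to 1863 genes higher and 1633 to 2079 lower, 3 to 5 members higher (5 without vehicle-treated mouse 5, SK-124-treated mouse 1 or mouse 5) and 3 lower, *Tef* from -0.053 to 0.086, *Bhlhe40* from 0.36 to 0.60 and *Ciart* from 0.76 to 1.304. Replicate numbers did not pair the mice (r from -0.131 to 0.217, 2 of 6 pairs over 0.1), and the block on them changed no member's call.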
